A study of Drosophila mojavensis with 137 samples.

Results

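This account concerns 128 transcripts of Drosophila mojavensis that were more abundant in virgin females than in virgin males by between 4-fold and 16-fold, and whose level in Punta Prieta females was nearly the same after mating as before it. They were chosen by their measured values out of the 14528 transcripts on the array, and make up 0.881% of them. The sex value used for the choice, S, was the mean of 42 virgin female arrays minus the mean of 53 virgin male arrays on the log2 scale, and members had an S above 2 and up to 4. The mating value, Mf, was mated minus virgin in Punta Prieta females, averaged over the rearing cacti, and members had an Mf between -0.15 and 0.15, a fold of at most 1.11. Another 44 transcripts of the same sex range had an Mf of 0.15 or more, and 116 had an Mf of -0.15 or less. S and Mf are given below as a description of what was chosen and support nothing else.

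The study measured whole adult wild-type flies on 137 one-colour arrays and asked how the adult transcriptome depends on life history before adulthood. Flies came from Punta Prieta in Baja California (labelled PP08) or Las Bocas in Sonora (labelled LB09), were reared on fermented organ pipe or agria cactus, were mated or virgin, and took 14, 15, 16, 17 or 18 days from egg to adult. The fits used 61 female arrays (19 mated, 42 virgin) and 74 male arrays (21 mated, 53 virgin). Organ pipe flies from Las Bocas had 1 mated female and 1 mated male array in the fits, so mating was tested there in agria flies only, and in Punta Prieta males on both cacti.

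Sex-biased expression in whole fruit flies arises largely in the reproductive organs. The ovary, with its germ cells, nurse cells and follicle cells, makes up a large part of the adult female and fills the egg with maternal RNA and protein, while transcripts of the yolk and eggshell are also made in females. Mating is known in Drosophila melanogaster to change female physiology through sperm and seminal fluid proteins, with more eggs matured and laid. In RNA from whole flies, fewer cells of a type and less RNA per cell cannot be told apart. Gene names do not accompany the IDs, and a reference table of 15130 genes holds 0 of the 14528, so functions of the members are not given and the tissue label was not checked against marker genes.

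A few arrays stood apart and touch the results on the members. Replicate 1 of the arrays labelled as 16 day mated females from Las Bocas on organ pipe averaged 10.07 over the members, inside the male range of 9.961 to 10.3, and its description names a virgin male from Punta Prieta. Replicate 2 of those labelled as 16 day mated males from Punta Prieta on organ pipe averaged 12.52, inside the female range of 11.92 to 12.96. Neither entered the rule, both were left out of the fits, and counts with all 137 arrays are given where they differ. A further 4 female arrays had the lowest SDs of log2 values over all transcripts, between 1.597 and 1.647 (the highest of any array was 1.902). These arrays of low spread were replicate 1 at 14 days and replicates 1 and 2 at 15 days of the mated Las Bocas agria females, and replicate 1 at 14 days of the virgin Punta Prieta agria females. In that order their means over the members were 11.92, 12.21, 12.11 and 12.14, the lowest of all female arrays in the fits. Punta Prieta organ pipe virgin males of 16 days, replicate 3, and of 17 days, replicate 1, had SDs of 1.67 and 1.682 and are counted with them as 6 arrays of low spread. A female array of similar SD, Las Bocas organ pipe virgin female of 17 days, replicate 2, also at 1.682, is not counted among them.

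The members were bright in females and of middling to low level in males. Their virgin female means lay between 10.42 and 15.15 with a median of 12.59, and their virgin male means between 8.067 and 12.88 with a median of 10.08. The medians over all transcripts were 11.34 in virgin females and 11.36 in virgin males. Of the members, 63 (49.2%) were above the upper quartile of all transcripts in virgin females, 12.69, and 112 (87.5%) were below the median of all transcripts in virgin males. S used these arrays, so such ranks follow in part from the choice. The 116 transcripts lower after mating had medians of 12.66 in virgin females and 10.05 in virgin males. The 44 higher after mating had 12.26 and 9.404. Most lay near the lower bound of the sex range, with a median S of 2.362 (5.14-fold) and an S of 3 or more in 15. Because probes differ between transcripts, these log2 levels rank a transcript only roughly against another.

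**Figure D1:**
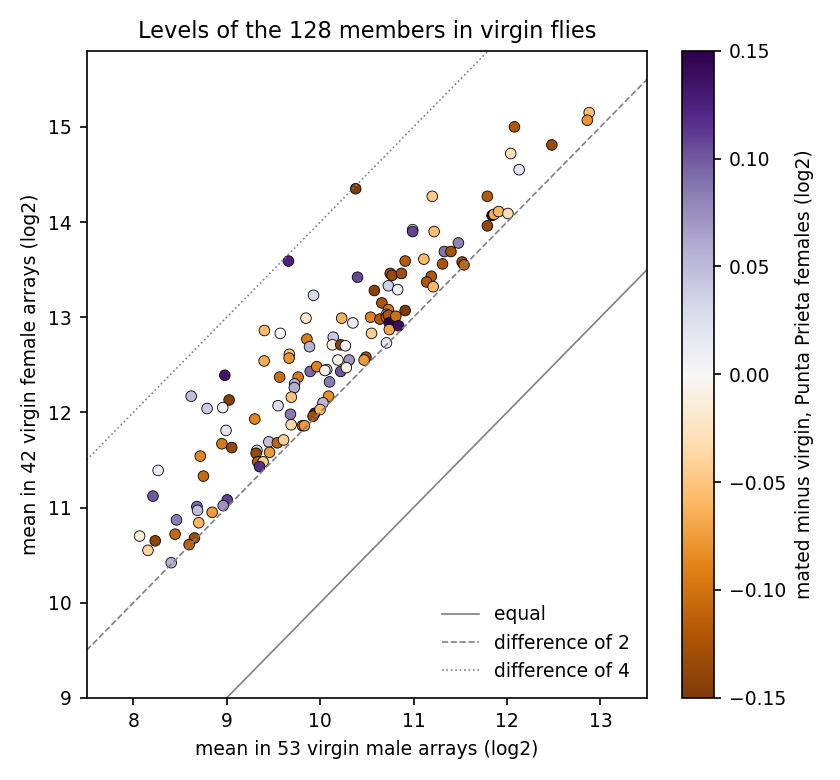
Mean log2 level of each of the 128 members in 42 virgin female arrays (vertical axis) against 53 virgin male arrays (horizontal axis), coloured by mated minus virgin in Punta Prieta females. The points lie between the lines of a log2 difference of 2 and 4 because members were chosen so, and most lie near the lower line, with a median of 2.362.

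FBtr0174282 had the largest S, 3.973. Its values were 13.58, 14.38 and 14.76 (lowest, median and highest) in virgin females, against 9.598, 10.26 and 11.59 in virgin males. FBtr0163931 followed with an S of 3.93, and its values were 13.35, 13.61 and 13.79 in virgin females, against 8.565, 9.673 and 10.35 in virgin males. In both the sexes were well separated, and FBtr0163931 varied little among virgin females (SD 0.13, n = 42) beside virgin males (SD 0.345, n = 53). The brightest members were FBtr0162209, at 15.15 ± 0.132 in virgin females and 12.88 ± 0.211 in virgin males, and FBtr0169949, at 15.07 ± 0.153 in virgin females and 12.86 ± 0.186 in virgin males (SD, n = 42 and n = 53). The dimmest were FBtr0166920, at 10.42 ± 0.459 in virgin females and 8.405 ± 0.307 in virgin males, and FBtr0170224, at 10.55 ± 0.442 in virgin females and 8.156 ± 0.265 in virgin males (SD, n = 42 and n = 53). The dim members thus had larger SDs among virgin females than the bright ones. In 121 members every virgin female array lay above every virgin male array, which held for 13.8% of all transcripts. The rule used these arrays, so nothing is read from that count.

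At the edges of the rule, FBtr0163706 was just inside with an S of 2.002 and FBtr0168060 just outside with 1.9997. At the upper edge FBtr0174282 was inside with 3.9733 and FBtr0171300 outside with 4.1909. FBtr0170472 was inside with an Mf of 0.1498 and FBtr0161619 outside with 0.1514, and on the lower side FBtr0171514 was inside with -0.1493 and FBtr0162674 outside with -0.1518. The standard error of Mf from the spread between arrays had a median of 0.0733 over the members, with a range of 0.0356 to 0.231. The band of 0.15 is thus about 2 such errors wide on each side, and transcripts near its edges could have fallen on either side. With the arrays of low spread left out of the rule there were 118 members, 109 of them among the 128. With medians in place of means there were 102, of which 92 were shared.

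Being level after mating on average did not mean being level on each cactus. By the means, the members had a median mating difference in Punta Prieta females of 0.0457 on organ pipe and of -0.14 on agria. On agria 96 of 128 were lower in mated than in virgin females and on organ pipe 35, and 79 had opposite signs on the cacti. A difference of over 0.15 in size was found on agria in 68 members and on organ pipe in 17. FBtr0174282 had differences of 0.0581 on organ pipe and -0.354 on agria, whereas FBtr0174031, close to the centre of the rule with an S of 2.93, had 0.0464 on organ pipe and 0.000268 on agria. With the arrays of low spread left out, a virgin agria female among them, the agria median was -0.206. These values belong to the contrast of the rule and were not tested. The rule held the average of the cacti within 0.15, so a large difference on agria had to be offset on organ pipe, and the reverse. Nothing about the cacti is therefore read from the signs.

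The sex difference was tested in arrays that the rule did not use, the mated agria flies from Las Bocas (6 female and 5 male arrays). All 128 members were higher in mated females than in mated males there by limma at an adjusted p below 0.05, where 71.4% of all transcripts passed and 44.9% were higher. The median difference was 2.11 on the log2 scale (4.31-fold), with a range of 1.38 to 3.83 (2.6-fold to 14.2-fold), against a median of 0.22 over all transcripts. In 124 of the 128 every mated female array lay above every mated male array, as it did in 24.9% of all transcripts. Without the arrays of low spread, 3 of these 6 female arrays among them, all 128 passed again and the median was 2.31. In that fit 5451 of all 14528 transcripts were higher and 3334 lower.

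FBtr0174282 measured 13.96, 14.41, 14.45, 14.27, 13.96 and 14.56 in the mated Las Bocas agria females, against 9.94, 10.73, 10.72, 10.70 and 10.35 in the mated males. The fitted difference was 3.83 (SE 0.184, adjusted p = 2.34e-40), and the groups did not overlap. FBtr0163931 measured 13.47, 13.86, 13.66, 13.52, 13.65 and 13.83 in these females, against 9.63, 10.11, 10.10, 9.96 and 9.88 in the males, a difference of 3.76 (SE 0.154, adjusted p = 8.19e-47). The smallest difference was that of FBtr0166920, 1.38 (SE 0.225, adjusted p = 3.89e-08). Its female values of 8.87, 10.46, 9.41, 9.05, 10.20 and 10.21 overlapped the male values of 9.06, 8.14, 8.07, 8.35 and 8.19, and the low female values at 8.87, 9.41 and 9.05 were those of the arrays of low spread.

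The sex difference in the other parts of the series was bound by the rule in all virgin flies, through S, and in mated Punta Prieta females, through Mf, and is given as a description. By the means, the median over the members in virgin flies was 2.27 in Punta Prieta organ pipe flies, 2.4 in Punta Prieta agria flies, 2.42 in Las Bocas organ pipe flies and 2.44 in Las Bocas agria flies. In mated flies it was 2.28 on both cacti in Punta Prieta and 2.08 in Las Bocas agria flies. By development time the median in virgin flies was 2.31 at 14 days, 2.39 at 15, 2.38 at 16, 2.36 at 17 and 2.52 at 18 days, the last from 2 female and 4 male arrays. Apart from the mated Las Bocas agria flies, tested above, none of these differences was tested.

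Averaged over the 128 members, each array gave 1 value. The closeness of mated and virgin females in Punta Prieta was fixed by the rule, which used those arrays, so these values are a description only. In Punta Prieta organ pipe flies the mean was 12.58 ± 0.0921 in mated females (SD, n = 7) and 12.53 ± 0.142 in virgin females (SD, n = 12). In Punta Prieta agria flies it was 12.53 ± 0.155 in mated females (SD, n = 5) and 12.64 ± 0.223 in virgin females (SD, n = 11). In Las Bocas agria flies it was 12.34 ± 0.325 in mated females (SD, n = 6) and 12.64 ± 0.198 in virgin females (SD, n = 11). The group ranges overlapped in each of these pairs. Las Bocas organ pipe virgin females had 12.67 ± 0.201 (SD, n = 8), and the single mated array there had 12.76. All male groups with over 1 array had means between 10.12 and 10.2, and the spread among arrays was smaller in males, with an SD of 0.0675 in virgin males (n = 53) against 0.192 in virgin females (n = 42).

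**Figure D2:**
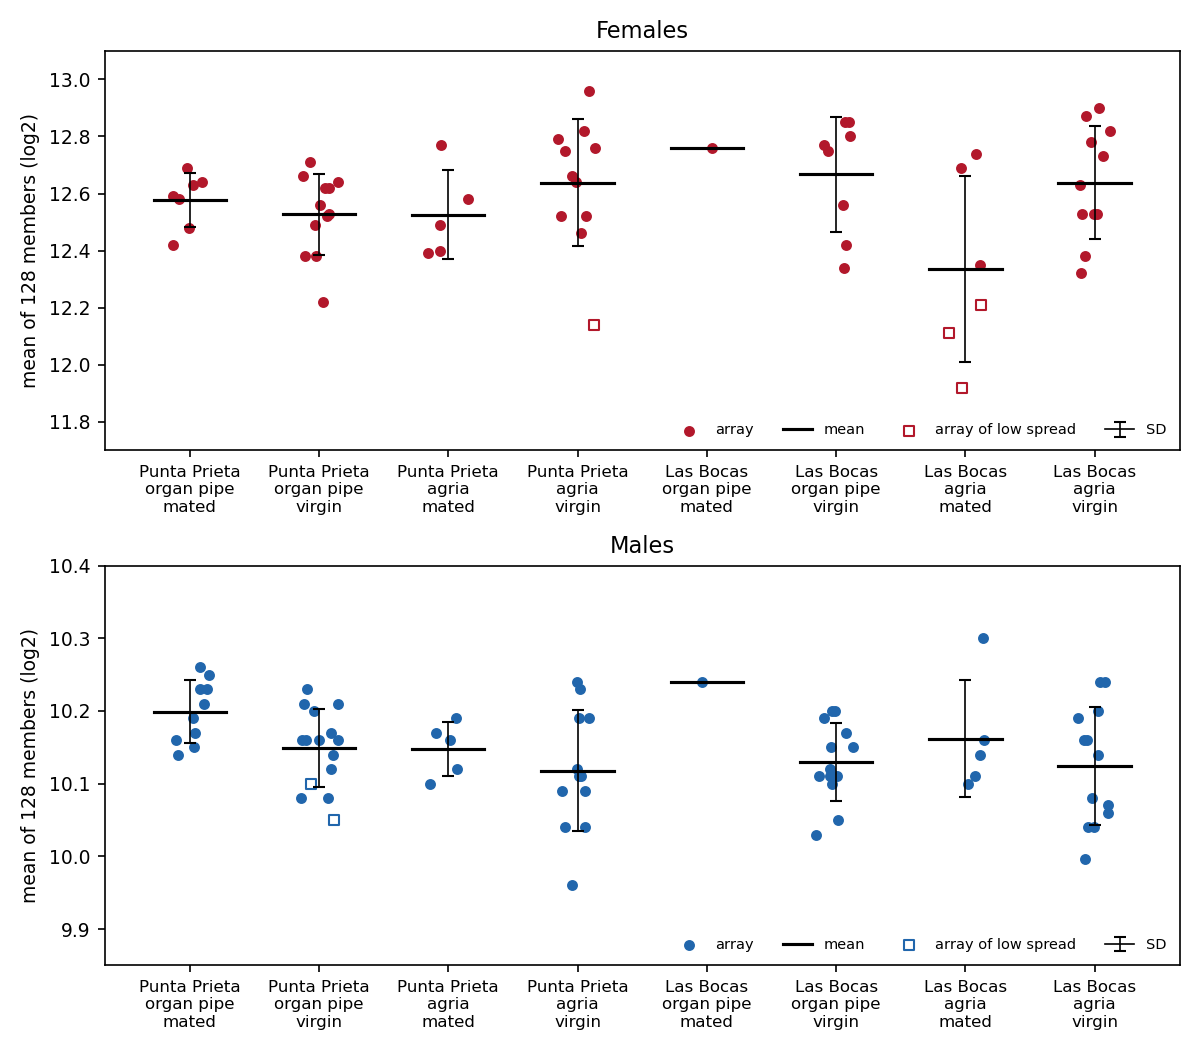
Mean over the 128 members on each array (log2, vertical axes of different range for females and males), by population, cactus and mating state, for the 135 arrays in the fits. Points are arrays, open squares the arrays of low spread, thick lines the group means and thin bars the SD. Female groups overlap, and the mated Las Bocas agria females, at 12.34 ± 0.325, include 3 arrays of low spread at 11.92, 12.11 and 12.21.

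Mating was then examined in Las Bocas agria females, whose mated arrays the rule did not use (their 11 virgin arrays were among the 42 behind S). Here 61 of the 128 members were lower in mated females and 0 higher, where 44% of all transcripts passed, 24.2% lower and 19.8% higher. The members' median difference was -0.249 against -0.0494 over all transcripts. A negative value was found in 123 of 128 members and in 7988 of all 14528 transcripts. The count of 61 depended on the arrays of low spread, which make up 3 of the 6 mated arrays. They were also the 3 lowest of the 6 in the mean over the members, so leaving them out raises the mated mean by construction. Without them 0 members passed by limma (0 also at an unadjusted p below 0.05). In that fit 25 of all 14528 transcripts were higher and 2 lower, so the drop in the count was not particular to the members. The members' median SE was 0.145 in that fit, against 0.123 with all 6 mated arrays. The members' median was then -0.0537, against -0.0099 over all transcripts. A negative value was found in 94 of 128 members and in 7672 of all transcripts. Of the 128, 110 (85.9%) were then within 0.15 of no difference, against 68.9% of all transcripts, and the 95% interval lay within 0.5 for 109. With all 6 mated arrays, 20 members (15.6%) were within 0.15, against 29.2% of all transcripts.

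Single arrays of this group moved the count as well. Left out in turn, the arrays of low spread of 14 days, replicate 1, and of 15 days, replicates 1 and 2, gave 14, 31 and 25 members that were lower, and the other 3 mated arrays gave 45 to 84. With all 137 arrays 19 members passed, with quantile normalization 37 and with array weights 97, each of them lower. The share of all transcripts in these fits is not given here, so the counts are not read as changes particular to the members. Over the 6 mated arrays the low array mean of the members went together with a low SD of the whole array, and the part of this in the result was not tested beyond the values above.

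The members with the largest differences were FBtr0166531 and FBtr0166912. FBtr0166531 measured 9.61, 11.86, 10.27, 9.67, 10.76 and 11.59 in mated Las Bocas agria females, against a lowest, median and highest of 10.67, 11.53 and 11.91 in 11 virgin females. FBtr0166912 measured 9.57, 11.79, 10.35, 10.30, 10.62 and 11.59 in the mated females, against 10.9, 11.48 and 11.99 in the virgin females. In each, the mated values at 14 days, replicate 2, and 16 days, replicate 2, lay inside the virgin range, and the other 4 mated values lay below it or, for FBtr0166531 at 10.76, just inside its lower end. The fitted differences were -0.842 (SE 0.195, adjusted p = 0.0011) for FBtr0166531 and -0.77 (SE 0.177, adjusted p = 0.00106) for FBtr0166912. Without the arrays of low spread FBtr0166531 had -0.0897 and FBtr0166912 had -0.164 (adjusted p = 0.992 for each).

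**Figure D3:**
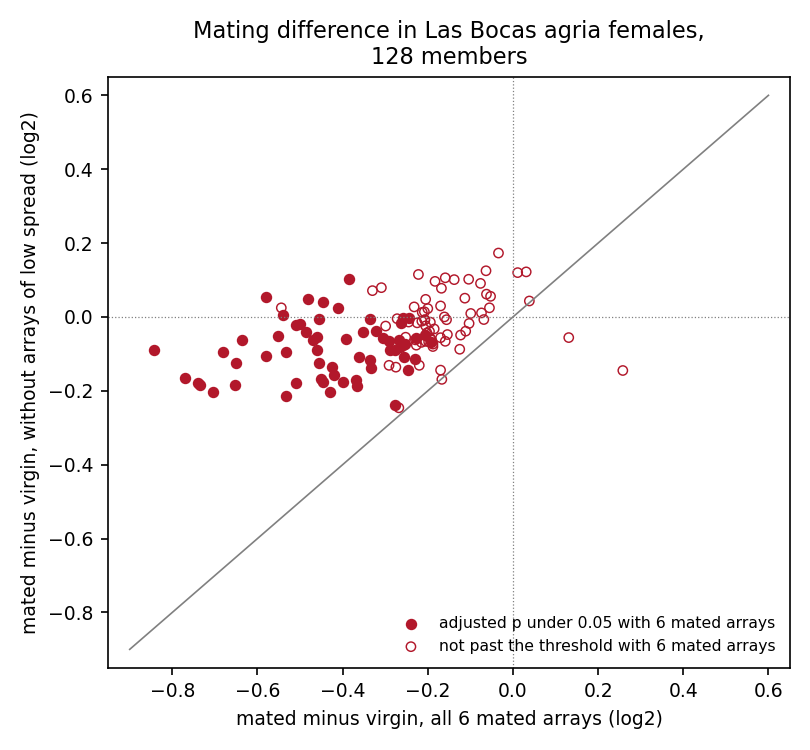
Fitted difference of each of the 128 members between mated and virgin Las Bocas agria females, with all 6 mated arrays (horizontal axis, log2) and without the arrays of low spread (vertical axis, log2). Filled points passed an adjusted p of 0.05 with 6 mated arrays. The points lie mostly above the diagonal line of equality, with a median of -0.249 on the horizontal and -0.0537 on the vertical axis.

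Transcripts of the same sex range outside the band of Mf were counted in the same contrast. Of the 44 that were higher after mating in Punta Prieta, 22 were higher and 2 lower in mated Las Bocas agria females, with a median of 0.478. Of the 116 that were lower after mating in Punta Prieta, 75 were lower and 0 higher, with a median of -0.344. Without the arrays of low spread, 6 of the 44 were higher and 0 lower, with a median of 0.287. In the same fit 0 of the 116 passed by limma, with a median of -0.16. There 25 of all 14528 transcripts were higher and 2 lower. The members' medians lay between those of these lists in both fits, and the difference between the lists was not tested.

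In males the share of members that passed for mating was close to that of the whole array. The 40 virgin male arrays compared here were among the 53 behind S, and a choice by S favours low values in them. The part of this in the difference was not tested. Averaged over the Las Bocas agria, Punta Prieta agria and Punta Prieta organ pipe males, 7 members were higher and 2 lower in mated than in virgin males, 9 (7.03%) in all, where 5.84% of all transcripts passed, 4.8% higher and 1.05% lower. The median difference was 0.0364, against 0.00389 over all transcripts, the range was -0.215 to 0.328, and the 95% interval lay within 0.5 for all 128 members. FBtr0164291 had 8.538, 9.493 and 9.873 (lowest, median and highest) in 20 mated males, against 8.343, 8.968 and 9.498 in 40 virgin males. The groups overlapped, with the median of mated males near the highest virgin male, and the fitted difference was 0.328 (SE 0.0773, adjusted p = 0.00216). FBtr0169289 was higher by 0.21 (SE 0.0643, adjusted p = 0.03), at 12.1 ± 0.166 in mated males (SD, n = 20) and 11.89 ± 0.305 in virgin males (SD, n = 40).

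FBtr0161062 was at 9.237 ± 0.231 in mated males (SD, n = 20) and 9.457 ± 0.311 in virgin males (SD, n = 40), a difference of -0.215 (SE 0.0686, adjusted p = 0.0406). Its adjusted p was 0.0553 with the replicate block, 0.0565 with days as categories and 0.0635 without the arrays of low spread. FBtr0163791 was at 10.46 ± 0.179 in mated males (SD, n = 20) and 10.67 ± 0.23 in virgin males (SD, n = 40), a difference of -0.183 (SE 0.0577, adjusted p = 0.0382), and its adjusted p was 0.065 without the arrays of low spread, where 5 members were higher and 0 lower. These male counts were fragile. No member passed with 15 and 16 day arrays only or without the arrays of replicate number 1 (limma, 0 each), and both fits had fewer arrays. With all 137 arrays 3 were higher and 0 lower, and with array weights 12 were higher and 2 lower. These counts stand without the share of all transcripts in the same fits.

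The mating effect differed between the sexes in Las Bocas agria flies for 6 members (4.69%), all of them more negative in females. Of all transcripts 3.37% passed, 1.58% more positive and 1.79% more negative. The virgin arrays of both sexes entered S. A choice by S favours high virgin female and low virgin male values, and the part of this in the count was not tested. FBtr0173121 had the largest such difference, -0.983 (SE 0.246, adjusted p = 0.0245), and FBtr0167220 had -0.775 (SE 0.235, adjusted p = 0.0467). FBtr0173121 was at 10.66 ± 0.779 in mated females (SD, n = 6) and 11.26 ± 0.34 in virgin females (SD, n = 11), and at 9.269 ± 0.207 in mated males (SD, n = 5) and 8.85 ± 0.34 in virgin males (SD, n = 13). The count was 0 without the arrays of low spread (limma, 3 members at an unadjusted p below 0.05). In that fit 6 of all 14528 transcripts were more positive and 3 more negative. The count of members was 0 with all 137 arrays, 78 with array weights and 10 with the replicate block. With each replicate number left out it ranged from 0, without number 1 or 3, to 24, without number 2. The share of all transcripts in these alternative fits is not given, so their counts are not read as results about the members.

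The virgin arrays compared next also entered the rule, but only pooled over populations, cacti and days for S, and the Punta Prieta females for Mf. In virgin females 2 members were higher and 5 lower in Punta Prieta than in Las Bocas, 7 (5.47%) in all, where 8.95% of all transcripts passed, 4.07% higher and 4.88% lower. The members' median was -0.0636 against -0.019 over all transcripts. The 95% interval lay within 0.5 for 123 of the 128 members. FBtr0166868 had 10.69, 12.71 and 13.67 (lowest, median and highest) in 23 Punta Prieta virgin females, against 10.89, 12.25 and 13.08 in 19 Las Bocas virgin females, with wide overlap and a fitted difference of 0.518 (SE 0.159, adjusted p = 0.0234). FBtr0161656 was higher by 0.363 (SE 0.102, adjusted p = 0.0116), at 12.47 ± 0.389 in Punta Prieta and 12.09 ± 0.275 in Las Bocas (SD, n = 23 and n = 19). FBtr0165550 was at 11.91 ± 0.403 in Punta Prieta and 12.33 ± 0.371 in Las Bocas (SD, n = 23 and n = 19), a difference of -0.387 (SE 0.111, adjusted p = 0.014). FBtr0170224, one of the dimmest members, differed by -0.331 (SE 0.103, adjusted p = 0.0257). With all 137 arrays 1 member passed and with array weights 36 (4 higher, 32 lower). With each replicate number left out the count was 1 without number 1, 3 without number 2, 2 without number 3, 13 without number 4 and 8 without number 5. Number 1 occurs in nearly every group and number 5 on 1 array, so these fits lose unequal numbers of arrays. The counts in alternative fits lack the share of all transcripts and are not read as particular to the members.

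Among virgin males, where these transcripts are low, more members differed between the populations. There 12 members were higher and 15 lower in Punta Prieta, 27 (21.1%) in all, where 18.4% of all transcripts passed, 7.65% higher and 10.8% lower, so the share was close to that of the whole array. The median was 0.00677 against -0.00818 over all transcripts. FBtr0165870 showed the clearest separation, with 8.859, 9.335 and 9.546 (lowest, median and highest) in 27 Punta Prieta virgin males, against 9.504, 9.787 and 10.15 in 26 Las Bocas virgin males. Only the ends of the ranges met, and the fitted difference was -0.479 (SE 0.0438, adjusted p = 3.84e-17). FBtr0166178 had the largest difference, -0.528 (SE 0.0672, adjusted p = 2.16e-10), with 8.858, 9.463 and 9.904 in Punta Prieta and 9.448, 9.991 and 10.42 in Las Bocas.

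On the other side, FBtr0161656 had a difference in virgin males of 0.468 (SE 0.0901, adjusted p = 2.38e-05), higher in Punta Prieta as it was in females. FBtr0170725 was higher there by 0.408 (SE 0.0532, adjusted p = 5.13e-10), at 11.68 ± 0.246 in Punta Prieta and 11.28 ± 0.244 in Las Bocas (SD, n = 27 and n = 26), while in virgin females it was at 13.8 ± 0.136 in Punta Prieta and 13.75 ± 0.139 in Las Bocas (SD, n = 23 and n = 19). Of the 27 members called in males, 4 were also called in females, 3 lower and 1 higher in both, and 0 were opposite. The sexes share an estimate of the spread for each transcript, so the lists are not independent. The count in males was 10 with all 137 arrays (5 higher, 5 lower), 15 without replicate number 1 and 43 with array weights (24 higher, 19 lower). Shares of all transcripts are not given for these fits, so nothing particular to the members is read from them.

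The population difference itself differed between the sexes for 8 members, 2 more positive and 6 more negative in females, where 4.16% of all transcripts passed, 2.09% more positive and 2.06% more negative. FBtr0167955 was at 12.9 ± 0.228 in Punta Prieta and 13.09 ± 0.212 in Las Bocas among virgin females (SD, n = 23 and n = 19), and at 10.03 ± 0.261 in Punta Prieta and 9.657 ± 0.245 in Las Bocas among virgin males (SD, n = 27 and n = 26). Its difference of differences was -0.53 (SE 0.0929, adjusted p = 2.58e-05). The fitted difference was 0.365 in virgin males (SE 0.0615, adjusted p = 1.28e-06). In virgin females it was -0.165 and did not pass (SE 0.0696, adjusted p = 0.129), so an opposite change in females is not established. FBtr0165428 had -0.401 (SE 0.0802, adjusted p = 0.00039). On the positive side FBtr0165870 had 0.253 (SE 0.0661, adjusted p = 0.0121) and FBtr0174031 had 0.247 (SE 0.0713, adjusted p = 0.0273). FBtr0165870 was lower in Punta Prieta in both sexes, by -0.225 in virgin females and -0.479 in virgin males. With all 137 arrays 0 members passed and with array weights 31, and with each replicate number left out the count ranged from 1, without number 1, to 11, without number 5. These counts, too, lack the share of all transcripts and are not read as particular to the members.

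**Figure D4:**
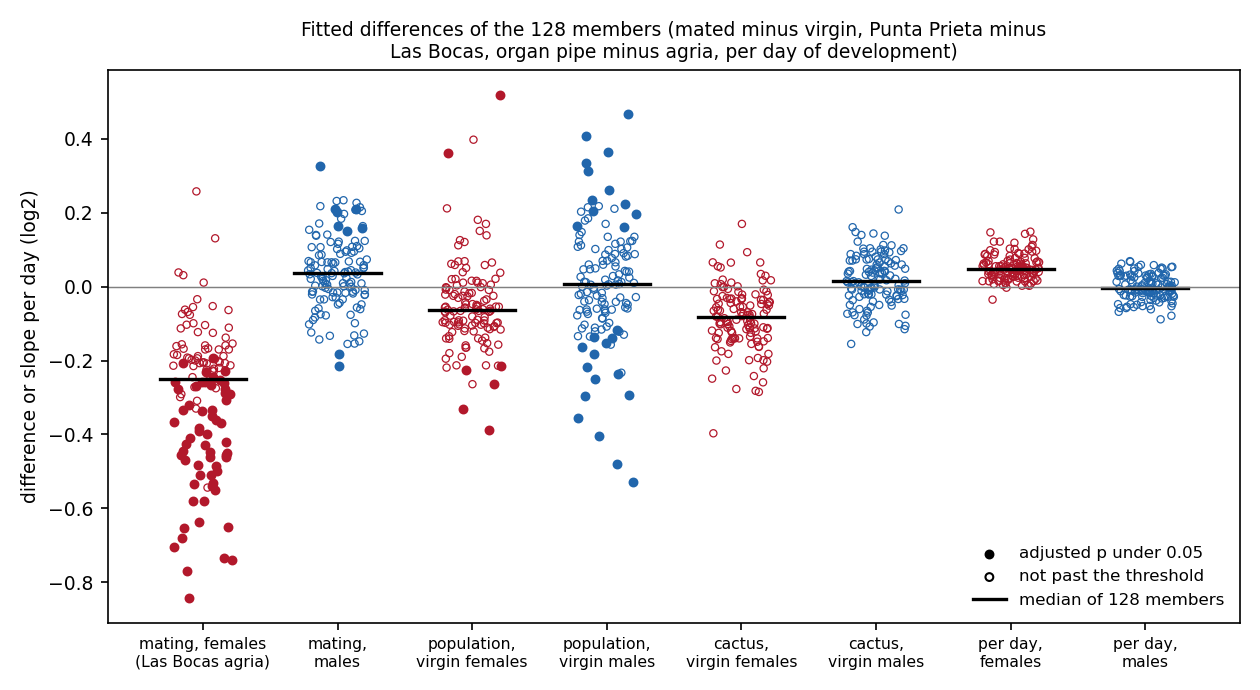
Fitted log2 difference, or slope per day of development, of each of the 128 members (vertical axis) in contrasts other than those of the rule, females in red and males in blue. Filled points passed an adjusted p of 0.05 over all 14528 transcripts, and black lines are medians. Values in mated Las Bocas agria females lie lowest, with a median of -0.249, and the slopes per day span the narrowest ranges, -0.0351 to 0.149 in females and -0.0884 to 0.0691 in males.

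The rearing cactus was not associated with any member at the threshold. In virgin females 0 members passed by limma for organ pipe against agria (24 at an unadjusted p below 0.05, smallest adjusted p = 0.0641), where 0.241% of all transcripts passed, 0.0895% higher and 0.151% lower. Their median was -0.0822 against -0.0223 over all transcripts, and the 95% interval lay within 0.5 for 126. A negative value was found in 111 of 128 members, whose signs are not independent, and in 8193 of all 14528 transcripts. In virgin males 0 passed as well (3 at an unadjusted p below 0.05), where 2.11% of all transcripts passed, 2.06% higher and 0.0482% lower, and the median was 0.0152. With array weights 9 members passed in females and 5 in males. In females 12 passed without the arrays of replicate number 4, each of them lower on organ pipe. For these alternative fits the share of all transcripts is not given, and the counts are not read further.

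No member passed the threshold for a population difference that depended on the cactus. By limma 0 passed in either sex (20 had an unadjusted p below 0.05 among virgin females and 8 among virgin males), where 0% of all transcripts passed. The precision was lower here, and in females the 95% interval lay within 0.5 for 62 of 128 members and within 1 for all of them. In virgin females the members' median was -0.142, against -0.0322 over all transcripts. A negative value was found in 106 of 128 members, whose signs are not independent, and in 8001 of all 14528 transcripts. Without the arrays of low spread the median was -0.207 against -0.0352, and 0 members passed (limma, 34 at an unadjusted p below 0.05). In virgin males the median was 0.0241. Without the arrays of replicate number 2, 10 members passed in females, and the share of all transcripts in that fit is not given.

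Development time likewise gave 0 members at the threshold by limma, among females as among males (21 and 10 had an unadjusted p below 0.05), where 0% of all transcripts passed. With array weights 37 members passed in females, all with a positive slope, where 22.5% of all transcripts passed. In females the members had a median slope of 0.047 per day, against 0.00702 over all transcripts. A positive value was found in 126 of 128 members and in 7916 of all 14528 transcripts. Because members varied together across virgin female arrays (median pairwise correlation 0.57), their signs are not independent of each other. The members' array mean was 12.49 ± 0.181 at 14 days (SD, n = 7), 12.63 ± 0.184 at 15 days (SD, n = 15), 12.66 ± 0.214 at 16 days (SD, n = 13), 12.58 ± 0.141 at 17 days (SD, n = 5) and 12.69 ± 0.234 at 18 days (SD, n = 2) in virgin females, differences within the spread between arrays. Without the arrays of low spread, all 4 female ones of 14 or 15 days, the median slope in females was 0.0258 and 110 of 128 values were positive. In that fit 7436 of all 14528 slopes were positive. In males the median slope was -0.00406, with 59 of 128 values positive. No slope of a member exceeded 0.149 per day in size in either sex.

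Members varied together across virgin female arrays. Over 42 arrays the median correlation between pairs of members was 0.57, with 95.5% of pairs positive, and the first principal component held 57.8% of their variance. Within groups of the same population, cactus and day the median was 0.567 (40 arrays). In virgin males the median was 0.0743 over 53 arrays, with 58.3% of pairs positive. The values share each array's RNA and scaling, and genes of 1 array are not independent replicates. For comparison, the 116 transcripts lower after mating in Punta Prieta had a median of 0.736 in virgin females, and the 44 higher after mating had 0.12.

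Against the mean of the other members, single members had correlations with a median of 0.76, above 0.8 in 44 and below 0.3 in 7. FBtr0166912, low in several mated Las Bocas females, was among the most coherent at 0.94. FBtr0161656, higher in Punta Prieta in both sexes, was the lowest at -0.0762, and the very bright FBtr0169949 had 0.133. For FBtr0174031, nearest the centre of the rule, the most similar transcripts of the whole array over the 42 virgin female arrays were FBtr0163358 (r = 0.842), FBtr0165085 (r = 0.782) and FBtr0165864 (r = 0.779). None of them is a member, and their S values were 0.4009, 1.31 and 0.1236. Among virgin females the members had a median SD of 0.241, against 0.277 over all transcripts, 0.285 for those lower and 0.446 for those higher after mating in Punta Prieta. The band of Mf used part of these arrays and more readily leaves out variable transcripts. The median standard error of Mf was 0.0733 in members and 0.0875 over all transcripts. Nothing is therefore read from the SDs.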

How the data were processed

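Total RNA of whole flies was measured on one-colour NimbleGen arrays, per the labels. The authors deposited log2 values, 1 per transcript and array, made with RMA (background correction, normalization between arrays, summary over probes) per the submitters' processing notes. The sources used here give neither its settings nor the annotation release. RMA hides changes of total RNA per fly and compresses differences of dim transcripts. Values lay between 5.829 and 15.89. Groups came from the titles. Members and lists were chosen with earlier results of these data known.

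The fits used limma 3.58.1 in R 4.3.3 (lmFit, eBayes) on 135 arrays and 14528 transcripts. Terms were the population, cactus, sex and mating state cells and a linear term for days within each sex. Adjustment was by Benjamini-Hochberg over all transcripts, with a threshold of 0.05. The script was tested on simulated data. Named transcripts are the 2 largest in each direction past the threshold per comparison, the 2 brightest, dimmest and most and least sex-biased members, the edges of the rule, and the member nearest its centre (S nearest 3, Mf nearest 0). Alternatives were all 137 arrays, no arrays of low spread, array weights, other scalings, a filter on dim transcripts, subsets or categories of days, a variance trend, a replicate block and each replicate number left out. Single arrays left out in turn were added after seeing the data. Member counts in the alternatives are mostly given without the share of all transcripts in the same fit, which may have moved as well. The labels do not say whether replicates were separate cultures, and each p-value covers the spread among arrays alone, which may be technical. The number of arrays limits the precision. Slides and scan dates were not analysed here, and the marker lists could not be matched to IDs.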

Additional observations from a re-analysis of the deposited data

Results flagged for a closer look

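The mean over the 128 members stood apart on 1 array among 22 groups of 4 to 10 arrays examined, where chance gives about 1 in 20. Las Bocas agria mated male, 14 days, replicate 1, had 10.3, and the nearest of the other 4 arrays of that group had 10.16. It was the only 14 day array of the group, so day and array cannot be told apart. Over all mated males the mean was 10.25 at 14 days (n = 3, this array included) and 10.15 at 15 days (n = 10). 2 results differed between groups by a test of the difference itself in limma. The first was the mating effect of females against males in Las Bocas agria flies, for 6 members (4.69%, against 3.37% of all transcripts). The second was the population difference of virgin females against virgin males, for 8 members (6.25%, against 4.16% of all transcripts). Both shares were close to those of the whole array, so the counts are not read as particular to the members. The first was 0 without the arrays of low spread, where 6 of all 14528 transcripts were more positive and 3 more negative. Both were 0 with all 137 arrays.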

How the results depend on the processing

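All 128 members passed for the sex difference in mated Las Bocas agria flies under each alternative, except that the filter on dim transcripts removed 18 of them and 110 passed. The number of members called moved by over 1.5 times elsewhere, and the cause was not tested. The counts below stand without the share of all transcripts in the same fit and are not read as changes particular to the members. With all 137 arrays it was 19 for mating in Las Bocas agria females, 3 for mating in males, 0 for its difference between the sexes, 1 for population in virgin females, 10 in virgin males and 0 for the difference of these. Without the 6 arrays of low spread it was 0 for mating in females, 5 in males and 0 for their difference, and 1 for cactus in males. With array weights it was 97, 14 and 78 for mating in females, in males and for their difference, 36, 43 and 31 for population in the same order, 9 and 5 for cactus in females and males, 2 for population by cactus in females and 37, all positive, for days in females. Quantile normalization gave 37 for mating in females, the filter on dim transcripts 1 for cactus in females, and 15 and 16 day arrays only gave 0 for mating in males and 1 for days in females. The replicate block gave 10 for the mating difference between the sexes and 4 for cactus in females. Other counts stayed within 1.5 times under the block. Replicate numbers did not pair the arrays, with a median correlation of deviations between groups of -0.00334 for the same number and -0.000831 for different numbers. With each replicate number or single array left out, counts ranged from 0 to 84 for mating in females, 0 to 9 in males, 0 to 24 for their difference, 1 to 13 for population in females, 15 to 27 in males, 1 to 11 for their difference, 0 to 12 for cactus in females and 0 to 10 for population by cactus in females, with the lowest counts of mating and population without replicate number 1. Replicate number 1 occurs in nearly every group, so leaving it out removed the most arrays. Over 358 combinations of a named transcript, its comparison and an alternative fit, the direction was kept in all. These transcripts were named for large differences past the threshold in the main fit, and the fits share most arrays. The kept directions were thus largely fixed beforehand, and nothing is read from them. In 58 of these combinations the threshold was not passed.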
